A study of Mus musculus with 12 samples.

Results

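Messenger RNA levels of 9 mouse genes of the aryl hydrocarbon receptor (AhR) axis and of xenobiotic metabolism were followed in lungs of mice with and without Nfkb1, after O3 or filtered air. The genes were the receptor Ahr, its partner Arnt, its repressor genes Ahrr and Tiparp, the targets Cyp1a1 and Cyp1b1, and the oxidising enzymes Cyp4b1, Fmo2 and Aox3. All 22 probe sets annotated with exactly 1 of these symbols were taken, out of 45101 probe sets, and the 9 genes stood among 17569 genes tested. Every one of the 22 probe sets passed the filter on low signals.

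Left lung RNA was hybridised to Affymetrix Mouse Genome 430 2.0 arrays, with 1 male mouse of 6 to 8 weeks per array. The 4 groups of 3 mice were Nfkb1-/- mice after O3 (Nfkb1KO-O3), Nfkb1-/- mice in air (Nfkb1KO-Air), Nfkb1+/+ mice after O3 (WT-O3) and Nfkb1+/+ mice in air (WT-Air). O3 was given at 0.3 ppm for 48 h without interruption, and the air groups breathed filtered air in a chamber of their own. The Nfkb1-/- mice carried the Nfkb1tm1Bal allele, which removes the NF-κB subunit p50/p105 from every cell. The WT mice were B6129PF2/J, so that both were of mixed background and were bought as separate stocks. A genotype difference therefore cannot be told apart from a difference between the stocks. The questions are whether these genes differ between Nfkb1-/- and WT lungs in air or after exposure, and whether the response to O3 differs between them. The annotation used here gave no probe set for Nfkb1, and its level was not analysed here. In whole lung, fewer cells of a type and less RNA per cell cannot be told apart.

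The AhR is a ligand-activated transcription factor that waits in the cytosol in a complex with heat shock protein 90. Once a ligand such as a dioxin, a polycyclic hydrocarbon or a tryptophan product binds, the receptor enters the nucleus, pairs with ARNT and binds xenobiotic response elements. Cyp1a1 is the classical target gene and is used as a readout of receptor activity, in the lung chiefly in endothelium and airway epithelium. AHRR and TIPARP are induced by the receptor and restrain it.

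The core of the response element is GCGTG, and both strands of the 250 bases before each annotated start were searched for it (RefSeq, build GRCm38.p6). Of the 9 members, 8 had such a window, with 9 windows in all. The core lay in 6 of these 9 windows, each of another gene, against 28.2% of 32851 windows over all genes. The G and C content of the member windows ran from 39.6% to 75.2%, and the share over all genes was not matched for it. Cyp1a1, Cyp1b1 and Tiparp are printed because they are the targets and the induced repressor whose levels are set side by side here, with the core in capitals and on the opposite strand where it reads CACGC.
Cyp1a1 (chr9:57697363-57697612, + strand): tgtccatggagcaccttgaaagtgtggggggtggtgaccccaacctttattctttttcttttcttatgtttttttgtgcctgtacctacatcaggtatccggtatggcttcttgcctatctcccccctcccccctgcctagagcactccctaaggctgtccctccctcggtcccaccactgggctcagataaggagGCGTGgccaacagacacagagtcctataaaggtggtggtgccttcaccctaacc
Cyp1b1 (chr17:79715062-79715311, - strand): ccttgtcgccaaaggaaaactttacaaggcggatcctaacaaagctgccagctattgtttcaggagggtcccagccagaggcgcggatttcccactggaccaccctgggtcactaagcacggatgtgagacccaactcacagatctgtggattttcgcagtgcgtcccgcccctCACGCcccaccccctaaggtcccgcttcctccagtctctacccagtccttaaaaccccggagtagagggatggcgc
Tiparp (chr3:65528197-65528446, + strand): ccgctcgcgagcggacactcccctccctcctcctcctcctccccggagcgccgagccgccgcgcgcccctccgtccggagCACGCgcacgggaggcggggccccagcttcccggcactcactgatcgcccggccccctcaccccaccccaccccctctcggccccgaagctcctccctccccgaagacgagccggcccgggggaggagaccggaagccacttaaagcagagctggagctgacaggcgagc
The match lay at -54 to -50 from the start in Cyp1a1, at -76 to -72 in Cyp1b1 and at -170 to -166 in Tiparp. Arnt and Aox3 also held 1 match each, and Ahrr held 3. No match was found in the windows of Cyp4b1 and Fmo2. A longer form of the element, TNGCGTG with N for any base, was searched for as well. It had 0 matches in the printed windows of Cyp1a1, Cyp1b1 and Tiparp and 1 match in Ahrr, beside 4.1% of all windows. A core match is 5 letters in a sequence and says nothing of binding in these lungs.

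Cyp1a1 was the member that changed most. After O3 its level in Nfkb1-/- lungs was 4.57-fold that in WT lungs, and it fell 3.98-fold with O3 in Nfkb1-/- mice and 6.84-fold with O3 in WT mice. By its brighter probe set, Ahr fell with O3 in both genotypes and was lower after O3 in Nfkb1-/- than in WT lungs. The Ahr call was lost in 9 of 23 alternative settings for genotype after O3. It was lost in 8 of 23 for O3 in WT mice and in 1 of 23 for O3 in Nfkb1-/- mice. The other 7 genes passed the threshold in no comparison (limma, Benjamini-Hochberg adjusted p under 0.05 over all genes).

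The counts have to be read against all genes. For genotype after O3, 2 of the 9 genes were called, against 0.723% of all genes. For genotype in air, 0 were called, against 0.342% of all genes, and 2 had an unadjusted p under 0.05. For O3 in Nfkb1-/- mice, 2 were called, against 6.18% of all genes, and for O3 in WT mice 2 were called, against 5.4% of all genes. The interaction of genotype and exposure (O3 difference of Nfkb1-/- mice minus O3 difference of WT mice) called 0 of the 9 genes, against 0.0342% of all genes, and 1 had an unadjusted p under 0.05. The called members were Cyp1a1 and Ahr in each of the 3 comparisons with a call.

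**Figure D1:**
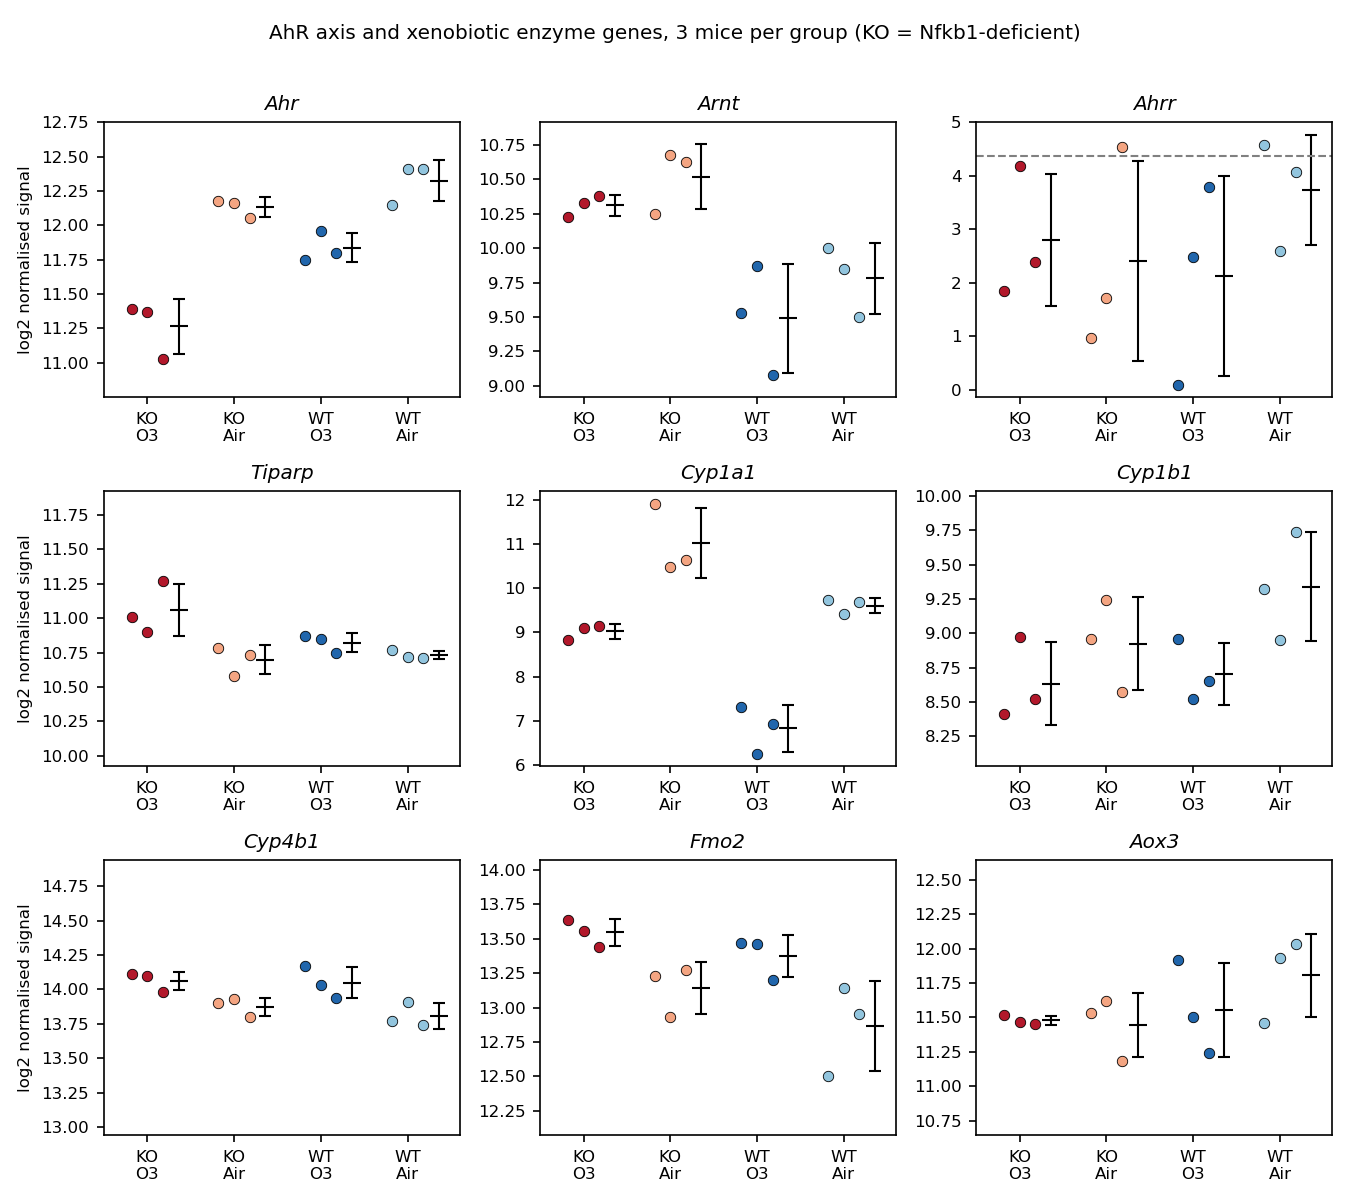
Log2 normalised signal (y axis) of the 9 genes in each of the 12 mice (points, 3 per group), with the group mean and SD (bars) and, for Ahrr, the limit of 4.37 as a dashed line; y axes differ between panels. Cyp1a1 spans 6.26 to 11.92 with no overlap between neighbouring groups, while Cyp4b1 stays between 13.74 and 14.17.

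Cyp1a1, a cytochrome P450 that oxidises polycyclic hydrocarbons and is the best known AhR target, was measured by 1 probe set. Its deposited signals were 450, 541 and 551 in Nfkb1KO-O3 lungs, 3450, 1430 and 1600 in Nfkb1KO-Air lungs, 150, 69.1 and 122 in WT-O3 lungs and 854, 679 and 824 in WT-Air lungs. On the log2 normalised scale the levels were 8.83, 9.11 and 9.14 in Nfkb1KO-O3, 11.92, 10.48 and 10.65 in Nfkb1KO-Air, 7.32, 6.26 and 6.92 in WT-O3, and 9.73, 9.41 and 9.69 in WT-Air lungs. All 3 mice of each group lay apart from the mice of every other group, and 1 Nfkb1KO-Air mouse stood well above its group. The order of the group means was Nfkb1KO-Air (11.02 ± 0.79, SD, n = 3), WT-Air (9.61 ± 0.18), Nfkb1KO-O3 (9.03 ± 0.17) and WT-O3 (6.83 ± 0.53). WT-Air and Nfkb1KO-O3 stood next to each other in that order and did not overlap, but no comparison of the design set them against each other.

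After O3, the log2 difference in Cyp1a1 between Nfkb1-/- and WT mice was 2.19 ± 0.33 (SE, 95% interval 1.47 to 2.92, limma adjusted p = 0.00796), rank 47 of 17569 genes by p. The adjusted p came to 0.0501 when the spread was not fitted as a function of the mean. In air the difference was 1.41 ± 0.33 (95% interval 0.69 to 2.13), a 2.66-fold higher level in Nfkb1KO-Air than in WT-Air lungs. That difference had an unadjusted p of 0.00107 and an adjusted p of 0.122 in limma, and did not pass the threshold although the groups did not overlap. Without Nfkb1KO-Air replicate 1, the array with the highest Cyp1a1 level, the difference in air was 0.96 (adjusted p = 0.21).

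With O3, Cyp1a1 fell by 1.99 ± 0.33 on the log2 scale in Nfkb1-/- mice (adjusted p = 0.00573) and by 2.77 ± 0.33 in WT mice (adjusted p = 0.000859, limma). The interaction was 0.78 ± 0.47, with a 95% interval of -0.24 to 1.81 and an adjusted p of 0.841. The interval includes no difference between the genotypes in the size of the O3 fall, and also a fall weaker by 1.81 in Nfkb1-/- mice. The interaction was 1.24 without Nfkb1KO-Air replicate 1 (unadjusted p = 0.00357, adjusted p = 0.538) and 1.19 with arrays centred on their medians (adjusted p = 0.801), and did not pass the threshold. In both genotypes the Cyp1a1 fall was far from the median O3 difference of all genes, which was -0.01 in Nfkb1-/- mice and -0.03 in WT mice. Both falls kept an adjusted p under the threshold in every alternative that was run, with log2 differences of -2.26 to -1.54 in Nfkb1-/- mice and -3.02 to -2.49 in WT mice.

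Ahr, the receptor itself, was bright, above 93.9% of all genes by mean signal. Its log2 levels were 11.39, 11.37 and 11.03 in Nfkb1KO-O3, 12.18, 12.16 and 12.05 in Nfkb1KO-Air, 11.75, 11.96 and 11.80 in WT-O3, and 12.15, 12.41 and 12.41 in WT-Air lungs. The 3 Nfkb1KO-O3 mice were the lowest of all 12, and the air groups of both genotypes overlapped. Ahr was lowest in a group in which Cyp1a1 was higher than in its WT counterpart.

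With O3, Ahr fell by 0.87 ± 0.11 on the log2 scale in Nfkb1-/- mice (1.82-fold lower, adjusted p = 0.00126) and by 0.48 ± 0.11 in WT mice (1.4-fold lower, adjusted p = 0.0236, limma). After O3 the log2 difference between Nfkb1-/- and WT mice was -0.57 ± 0.11 (1.49-fold lower, adjusted p = 0.0304), and in air it was -0.19 ± 0.11 (adjusted p = 0.54). The interaction was -0.38 ± 0.15, with an unadjusted p of 0.027 and an adjusted p of 0.81, so that it did not pass the threshold. When single mice were left out, the log2 differences stayed between -0.64 and -0.46 for genotype after O3, -0.93 and -0.75 for O3 in Nfkb1-/- mice and -0.57 and -0.44 for O3 in WT mice. The O3 fall in Nfkb1-/- mice kept its call throughout. The genotype difference after O3 lost its call without WT-O3 replicate 1 (adjusted p = 0.0592), 2 (0.165) or 3 (0.0916) and without Nfkb1KO-O3 replicate 1 (0.066) or 3 (0.0875), and the O3 fall in WT mice lost it without WT-Air replicate 2 (0.0591) or 3 (0.0869) and without WT-O3 replicate 1 (0.0854) or 3 (0.0831). When arrays were centred on their medians, all 3 Ahr differences kept their sign and missed the threshold (adjusted p = 0.888 for genotype after O3, 0.315 for O3 in Nfkb1-/- mice and 0.609 for O3 in WT mice). With the mean of both Ahr probe sets, the adjusted p was 0.586 for genotype after O3 and 0.253 for O3 in WT mice, and with no trend in the spread it was 0.132 and 0.0789 for these comparisons. A dim further Ahr probe set (6.20 to 6.96) gave 0.00 for genotype after O3, -0.26 for O3 in Nfkb1-/- mice and -0.12 for O3 in WT mice, each with an SE of 0.26.

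**Figure D2:**
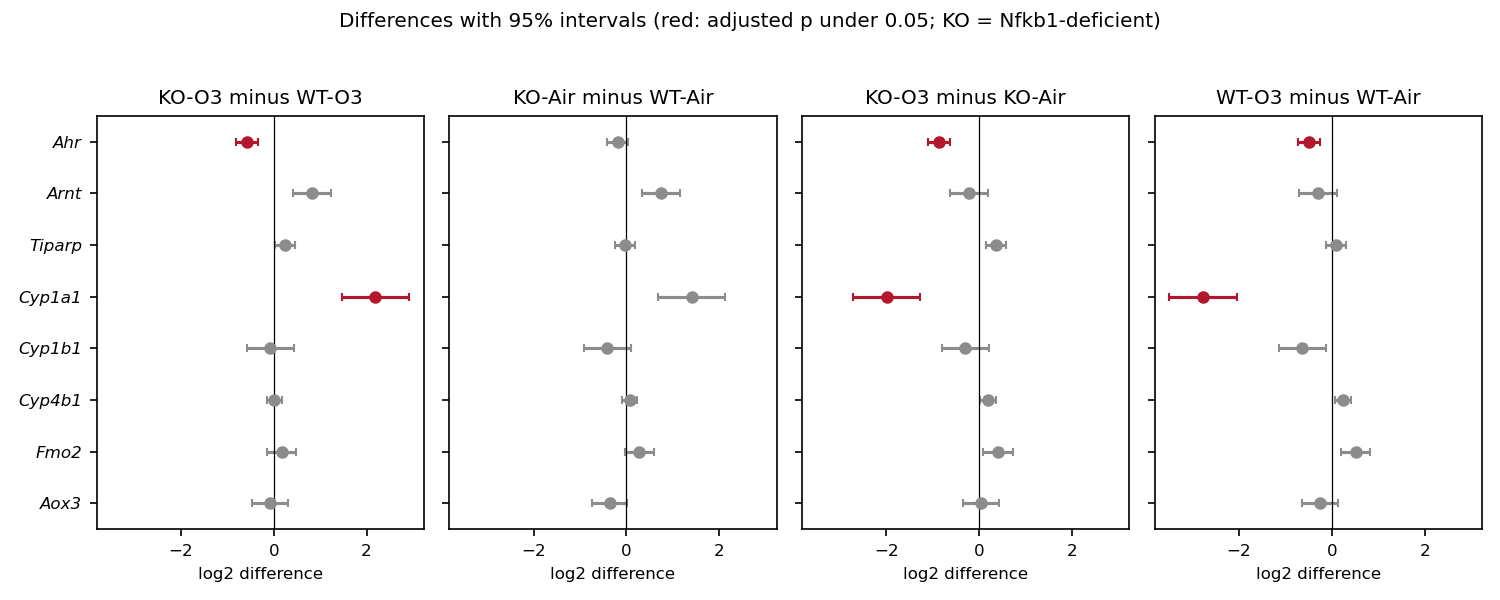
Log2 differences (x axis) of 8 genes in the 4 comparisons (panels), as points with 95% intervals, red where the limma adjusted p was under 0.05; Ahrr is left out because its signal lay at the limit. Only Cyp1a1 and Ahr are red, and Cyp1a1 reaches 2.19 for genotype after O3 and -2.77 for O3 in WT mice.

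Arnt, the dimerisation partner that the receptor shares with hypoxia-inducible factors, had log2 levels of 10.23, 10.33 and 10.38 in Nfkb1KO-O3, 10.25, 10.68 and 10.63 in Nfkb1KO-Air, 9.53, 9.87 and 9.08 in WT-O3, and 10, 9.85 and 9.50 in WT-Air lungs by its brightest probe set. Every Nfkb1-/- mouse lay above every WT mouse on this probe set. The difference was 0.82 ± 0.19 after O3 (1.77-fold, adjusted p = 0.083) and 0.74 ± 0.19 in air (1.67-fold, adjusted p = 0.147), and neither passed the threshold in limma. The difference after O3 passed the threshold without WT-O3 replicate 2 (1.01, adjusted p = 0.0487) and with array weights (0.77, adjusted p = 0.0391). The other 4 Arnt probe sets gave -0.50 to 0.19 for genotype after O3 and -0.23 to 0.49 in air. The mean over all 5 probe sets gave -0.004 after O3 and 0.24 in air (adjusted p = 0.598). With O3, the brightest Arnt probe set gave -0.21 ± 0.19 in Nfkb1-/- mice and -0.29 ± 0.19 in WT mice.

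Ahrr, which competes with the receptor for ARNT, was near the bottom of the scale. Its log2 signal ran from 0.10 to 4.57 over the 12 mice, and 10 of the 12 were no higher than 4.37, the 20th percentile of all signals. At that level the signal does not separate a change from none, and no fold is given. The 2.77 mean log2 level of Ahrr over all mice was itself under this limit.

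Tiparp, a poly-ADP-ribose polymerase family enzyme that is induced by the receptor and restrains it, had log2 levels of 11.01, 10.90 and 11.27 in Nfkb1KO-O3, 10.78, 10.58 and 10.73 in Nfkb1KO-Air, 10.87, 10.85 and 10.75 in WT-O3, and 10.77, 10.72 and 10.71 in WT-Air lungs. The 3 Nfkb1KO-O3 mice were the highest of all. The O3 difference was 0.36 ± 0.10 in Nfkb1-/- mice (1.28-fold, adjusted p = 0.0503) and 0.09 ± 0.10 in WT mice (adjusted p = 0.672), with an interaction of 0.27 ± 0.14 (adjusted p = 0.831, limma). The difference in Nfkb1-/- mice lay just outside the threshold and passed it in 6 of 23 alternatives, among them the one without Nfkb1KO-O3 replicate 2 (0.44, adjusted p = 0.0375). The other 2 Tiparp probe sets gave O3 differences of 0.46 and 0.64 in Nfkb1-/- mice and of 0.32 and 0.36 in WT mice, and the value of 0.64 passed the threshold when every probe set was fitted on its own (adjusted p = 0.0249, limma). For genotype after O3 the 3 Tiparp probe sets gave 0.24, 0.43 and 0.59, none past the threshold. All O3 differences of Tiparp were opposite in sign to those of Cyp1a1.

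Cyp1b1, a P450 of the same family that also acts on steroids and is another receptor target, had log2 levels of 8.41, 8.97 and 8.52 in Nfkb1KO-O3, 8.96, 9.24 and 8.57 in Nfkb1KO-Air, 8.96, 8.52 and 8.65 in WT-O3, and 9.32, 8.95 and 9.74 in WT-Air lungs. The groups overlapped in every comparison of the design. O3 gave -0.63 ± 0.23 in WT mice, with an unadjusted p of 0.0178 and an adjusted p of 0.147, and -0.29 ± 0.23 in Nfkb1-/- mice (adjusted p = 0.512, limma). Between the genotypes Cyp1b1 gave -0.08 ± 0.23 after O3 (95% interval -0.58 to 0.43), where Cyp1a1 gave 2.19. The next probe set had 0.33 ± 0.21 for O3 in Nfkb1-/- mice and -0.18 ± 0.21 in WT mice, and the last one lay at or below the limit in 6 of the 12 mice.

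**Figure D3:**
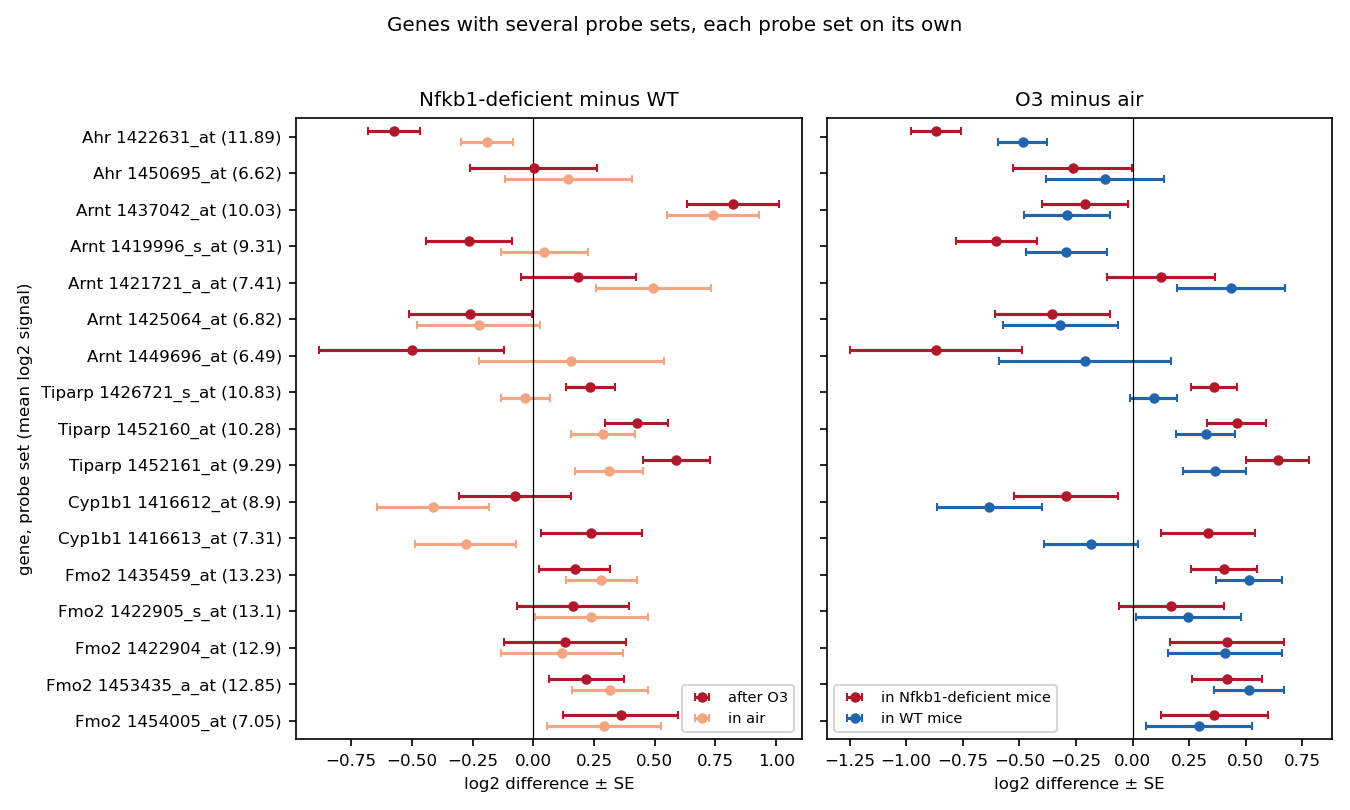
Log2 differences with SE (x axis) of the probe sets of the genes with more than 1, between genotypes (left) and between exposures (right), ordered by gene and by mean log2 signal (in brackets). The dimmest Cyp1b1 probe set is left out because its signal lay near the limit. The 5 Fmo2 probe sets lie right of 0 with O3 in both genotypes, while the 5 Arnt probe sets fall on both sides of 0 for genotype after O3 (-0.50 to 0.82).

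Cyp4b1, Fmo2 and Aox3 are not classical receptor targets. Cyp4b1, a P450 of club cells and alveolar type 2 cells that activates furans and aromatic amines, was brighter than 99.6% of genes. Its log2 levels were 14.11, 14.10 and 13.98 in Nfkb1KO-O3, 13.90, 13.93 and 13.80 in Nfkb1KO-Air, 14.17, 14.03 and 13.94 in WT-O3, and 13.77, 13.91 and 13.74 in WT-Air lungs. All 6 O3 mice lay above all 6 air mice, by a small margin. The O3 difference was 0.19 ± 0.08 in Nfkb1-/- mice (1.14-fold, adjusted p = 0.183) and 0.24 ± 0.08 in WT mice (1.18-fold, adjusted p = 0.103), and did not pass the threshold in limma. Genotype gave 0.01 ± 0.08 after O3 (95% interval -0.15 to 0.18) and 0.07 ± 0.08 in air.

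Fmo2, the main flavin-containing monooxygenase of mouse lung, which oxidises soft nucleophiles such as sulphur and nitrogen compounds, was brighter than 98.6% of genes. Its log2 levels were 13.64, 13.56 and 13.44 in Nfkb1KO-O3, 13.23, 12.93 and 13.27 in Nfkb1KO-Air, 13.47, 13.46 and 13.20 in WT-O3, and 12.50, 13.14 and 12.95 in WT-Air lungs. Within each genotype, every O3 mouse lay above every air mouse. The O3 difference was 0.40 ± 0.15 in Nfkb1-/- mice (1.32-fold, adjusted p = 0.132) and 0.51 ± 0.15 in WT mice (1.43-fold, adjusted p = 0.0646), neither past the threshold in limma. The value in WT mice passed the threshold without WT-Air replicate 2 (0.65, adjusted p = 0.0236) and with array weights (0.56, adjusted p = 0.0292). The 5 Fmo2 probe sets gave 0.17 to 0.42 in Nfkb1-/- mice and 0.25 to 0.52 in WT mice with O3, all positive. Genotype gave 0.17 ± 0.15 after O3 and 0.28 ± 0.15 in air (adjusted p = 0.797 and 0.504).

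Aox3, an aldehyde oxidase that uses a molybdenum cofactor and oxidises nitrogen heterocycles, had log2 levels of 11.52, 11.47 and 11.45 in Nfkb1KO-O3, 11.53, 11.62 and 11.18 in Nfkb1KO-Air, 11.92, 11.50 and 11.24 in WT-O3, and 11.46, 11.93 and 12.03 in WT-Air lungs. The groups overlapped in every comparison of the design. O3 gave 0.04 ± 0.18 in Nfkb1-/- mice and -0.25 ± 0.18 in WT mice, and genotype gave -0.07 ± 0.18 after O3 and -0.36 ± 0.18 in air (adjusted p = 0.468 to 0.956 over the 4 comparisons, limma). The 95% interval in WT mice, -0.64 to 0.13, allows a fall with O3 of up to 0.64 but none of the size of the Cyp1a1 fall.

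The members differed widely in how far they varied over the 12 mice. The SD of the log2 level was 1.63 for Cyp1a1, 0.48 for Arnt, 0.43 for Ahr and 0.40 for Cyp1b1, and 0.14 to 0.32 for Cyp4b1, Tiparp, Aox3 and Fmo2. Ahrr had an SD of 1.47 at the limit of the scale. Among the 8 members above the limit, Cyp1a1 had the widest range.

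The rest of the receptor pathway was taken from fixed lists of genes. Of 10 measured genes of the AhR complex and its regulators, Ahr and Hsp90aa1 were lower with O3 in Nfkb1-/- mice and Ahr was lower with O3 in WT mice, and none was higher. Over all genes, 3.35% were called higher and 2.83% lower with O3 in Nfkb1-/- mice, and 3.16% higher and 2.24% lower in WT mice. Hsp90aa1, an isoform of the chaperone that holds the unliganded receptor, averaged a log2 level of 13.79 in Nfkb1KO-O3 and 14.16 in Nfkb1KO-Air lungs (difference -0.36 ± 0.07, adjusted p = 0.014) and 13.98 in WT-O3 and 14.08 in WT-Air lungs (adjusted p = 0.543). The median O3 difference of the list was -0.14 in Nfkb1-/- mice and -0.10 in WT mice, beside -0.01 in Nfkb1-/- mice and -0.03 in WT mice for all genes.

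Of 10 measured genes of the AhR gene battery, the genes most often used as receptor targets, 1 was higher and 1 was lower with O3 in either genotype. Over all genes, 3.35% were called higher and 2.83% lower in Nfkb1-/- mice, and 3.16% higher and 2.24% lower in WT mice. The lower gene of the battery was Cyp1a1. The higher one was Xdh, xanthine dehydrogenase, with a mean log2 level of 11.91 in Nfkb1KO-O3 and 11.05 in Nfkb1KO-Air lungs (1.81-fold higher, adjusted p = 0.00425) and 11.71 in WT-O3 and 10.89 in WT-Air lungs (1.76-fold higher, adjusted p = 0.00487, limma). Nqo1, a quinone reductase, gave 0.01 ± 0.24 in Nfkb1-/- mice and -0.10 ± 0.24 in WT mice with O3. Aldh3a1, an aldehyde dehydrogenase, gave -0.46 ± 0.27 in Nfkb1-/- mice and 0.04 ± 0.27 in WT mice. Lrat, which esterifies retinol, gave -0.53 ± 0.22 in Nfkb1-/- mice and -0.59 ± 0.22 in WT mice. None of these 3 genes passed the threshold. For genotype after O3, Cyp1a1 was the only gene of the battery that was called, beside 0.552% of all genes called higher. The median of the list was 0.27, beside 0.003 for all genes. Cyp1a2 and Ahrr had mean log2 levels of 3.30 and 2.77, below the limit of 4.37.

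**Figure D4:**
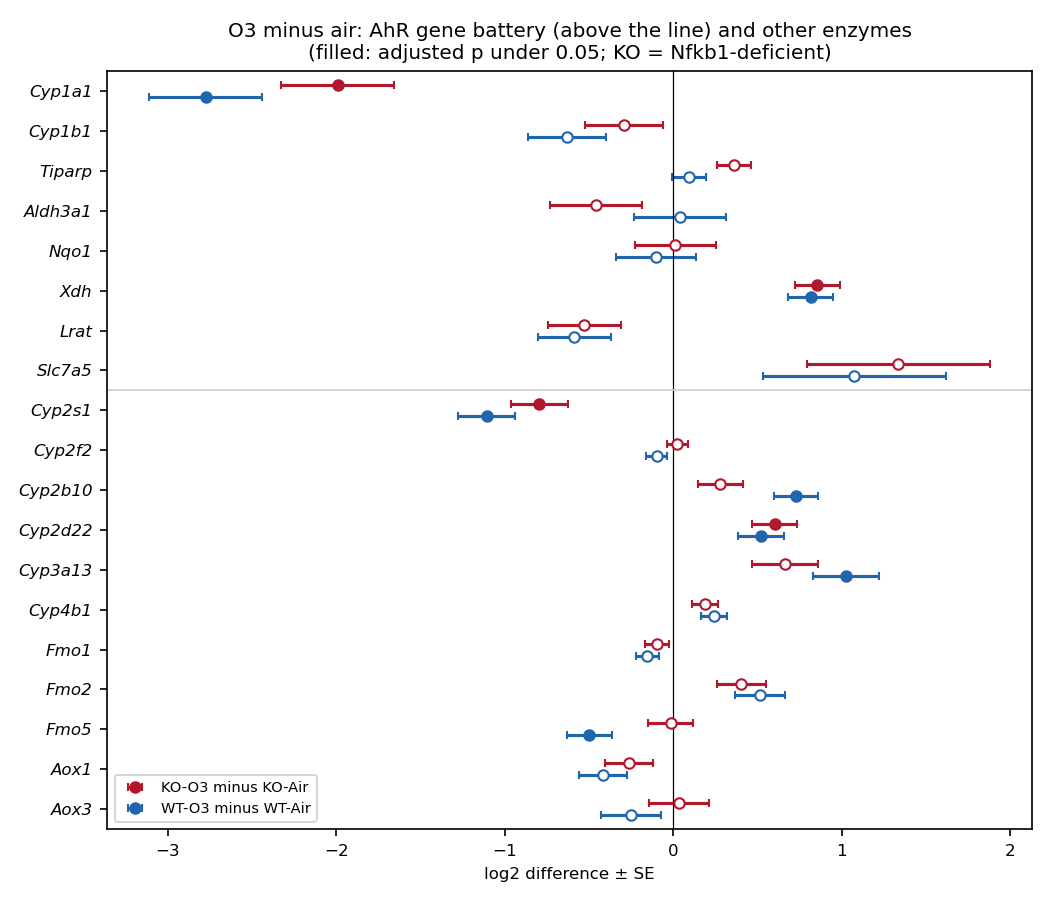
Log2 difference between O3 and air with SE (x axis) for 8 genes of the AhR battery with readable signal (above the line) and 11 further oxidising enzymes (below it), in Nfkb1-/- mice (red) and WT mice (blue), filled where the limma adjusted p was under 0.05. Cyp1a1 lies at -1.99 in Nfkb1-/- and -2.77 in WT mice, whereas Xdh lies at 0.86 in Nfkb1-/- and 0.82 in WT mice and Nqo1 near 0.

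Among 22 measured cytochrome P450 genes of families 1 to 4, 1 was higher and 2 were lower with O3 in Nfkb1-/- mice, and 3 were higher and 3 lower with O3 in WT mice, beside 3.35% higher and 2.83% lower among all genes in Nfkb1-/- mice and 3.16% higher and 2.24% lower in WT mice. Cyp2s1, an airway epithelial P450, had mean log2 levels of 11.51 in Nfkb1KO-O3 and 12.30 in Nfkb1KO-Air lungs (1.73-fold lower, adjusted p = 0.0165), and of 11.35 in WT-O3 and 12.45 in WT-Air lungs (2.15-fold lower, adjusted p = 0.00375, limma). Cyp2d22 was higher with O3 by 0.60 ± 0.14 in Nfkb1-/- mice and 0.52 ± 0.14 in WT mice. Cyp3a13 was 2.03-fold higher with O3 in WT mice (adjusted p = 0.0112), with 0.66 ± 0.20 in Nfkb1-/- mice (adjusted p = 0.0667), and Cyp2b10 was higher by 0.73 ± 0.13 in WT mice. Cyp4v3 was lower by 0.34 ± 0.09 in WT mice (adjusted p = 0.0468). Cyp2f2, the abundant club cell P450, gave 0.03 ± 0.06 in Nfkb1-/- mice and -0.10 ± 0.06 in WT mice. Cyp1a1 had the largest O3 fall of these 22 genes in both genotypes. It was the only one called for genotype after O3, beside 0.552% of all genes called higher.

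Of 4 measured flavin-containing monooxygenases, Fmo1 was the one called between genotypes. It averaged 12.37 in Nfkb1KO-O3 and 12.76 in WT-O3 lungs (1.31-fold lower, adjusted p = 0.0229), and 12.46 in Nfkb1KO-Air and 12.91 in WT-Air lungs (1.36-fold lower, adjusted p = 0.0182, limma), beside 0.171% of all genes lower after O3 and 0.0854% lower in air. Fmo2 had the opposite sign between genotypes and did not pass. Fmo5 was lower with O3 in WT mice by 0.50 ± 0.13 on the log2 scale (adjusted p = 0.0493, limma), beside 2.24% of all genes called lower. Of 10 measured aldehyde and xanthine oxidases and genes of the molybdenum cofactor, only Xdh was called, higher with O3 in both genotypes. The share of all genes called higher was 3.35% in Nfkb1-/- mice and 3.16% in WT mice. Aox1, the close relative of Aox3, gave -0.27 ± 0.14 in Nfkb1-/- mice (adjusted p = 0.307) and -0.42 ± 0.14 in WT mice (adjusted p = 0.116, limma) with O3.

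Of 33 measured conjugating enzymes, 3 were higher and 3 lower with O3 in Nfkb1-/- mice, and 3 were higher and 1 lower in WT mice. The shares over all genes were 3.35% higher and 2.83% lower in Nfkb1-/- mice and 3.16% higher and 2.24% lower in WT mice. The glutathione transferases Gsta3 and Mgst3 were higher with O3 in both genotypes, Gsta3 by 0.76 ± 0.10 in Nfkb1-/- mice and 0.72 ± 0.10 in WT mice, and Mgst3 by 1.01 ± 0.15 in Nfkb1-/- mice and 1.05 ± 0.15 in WT mice. Sult1a1, a sulphotransferase, was higher by 0.65 ± 0.17 in Nfkb1-/- mice and 0.78 ± 0.17 in WT mice. Lower with O3 in Nfkb1-/- mice were the glutathione transferase Gsto1 by 0.75 ± 0.17 (adjusted p = 0.0211), the epoxide hydrolase Ephx1 by 0.44 ± 0.12 (adjusted p = 0.047) and the acetyltransferase Nat1, whose mean log2 level of 3.58 in Nfkb1KO-O3 lungs was under the limit of 4.37, against 6.15 in Nfkb1KO-Air lungs. In WT mice the glutathione transferase Gstm2 was lower by 0.44 ± 0.10 (adjusted p = 0.0305). Of 17 measured aldehyde dehydrogenases and carboxylesterases, Ces1g was higher by 1.46 ± 0.20 in Nfkb1-/- mice, and Ces2g was lower by 0.79 ± 0.21 in Nfkb1-/- mice and 0.85 ± 0.21 in WT mice. Of 14 measured P450 electron donors and haem genes, Pgrmc1 was called, lower with O3 in WT mice by 0.29 ± 0.08. Of 11 measured xenobiotic-sensing receptors and partners, 1 was called with O3. Nfe2l2, which encodes the oxidant-responsive factor NRF2, was higher with O3 by 0.44 ± 0.08 in Nfkb1-/- mice (adjusted p = 0.00643) and 0.47 ± 0.08 in WT mice (adjusted p = 0.00466, limma). Gsto1 was the 1 conjugating enzyme called in air, beside 0.256% of all genes called higher. It was 2.27-fold higher in Nfkb1KO-Air than in WT-Air lungs (adjusted p = 0.00978, limma). Among 15 other bHLH-PAS factors, the protein family of AHR and ARNT, Per2 and Hif1a were higher with O3 in WT mice by 1.10 ± 0.20 and 0.45 ± 0.10, and none was called in Nfkb1-/- mice.

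The 5 genes whose levels over the 12 mice lay nearest to those of Cyp1a1 were Ifi27l2a, Muc5b, Ms4a4c, Rsad2 and Oas1a. The measure was the root mean square difference of log2 levels, each gene centred on its own mean, over 8776 genes above the median level, and it was 0.73 for Ifi27l2a and 0.85, 0.86, 0.86 and 0.90 for the others in that order. None of the other 8 members was as near, with 1.32 for Arnt, 1.48 for Ahr and 1.47 for Cyp1b1. Ifi27l2a, an interferon-inducible gene, averaged 11.53 in Nfkb1KO-O3, 12.98 in Nfkb1KO-Air, 9.88 in WT-O3 and 11.53 in WT-Air lungs. Muc5b, an airway mucin, averaged 8.88 in Nfkb1KO-O3, 11.69 in Nfkb1KO-Air, 8.13 in WT-O3 and 9.81 in WT-Air lungs. Ranking by distance favours genes that vary as widely as Cyp1a1, and the nearness is a description of 12 arrays in which group means set most of the pattern.

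**Figure D5:**
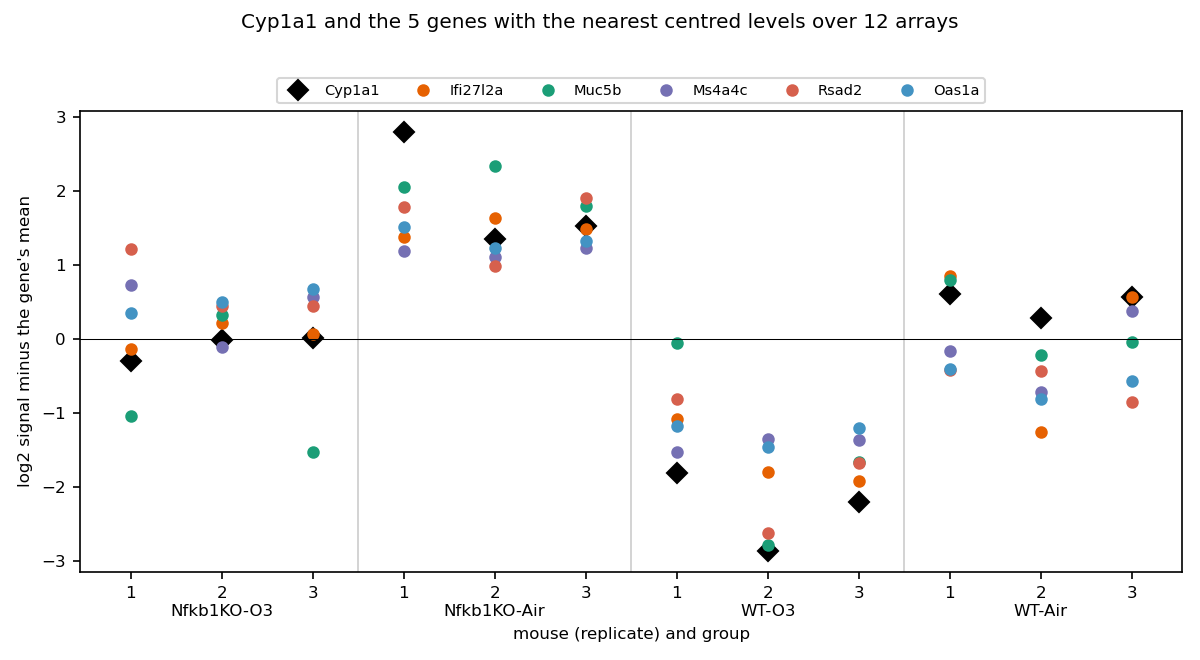
Log2 signal minus the mean of each gene (y axis) for Cyp1a1 (diamonds) and its 5 nearest genes (circles) in each of the 12 mice, by group (x axis). All 6 genes are above their mean in the 3 Nfkb1KO-Air mice and below it in the 3 WT-O3 mice.

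Several measures of the arrays and of the tissue moved with O3 beside these results. Median deposited signals were 99.1 to 121.2 on 11 arrays and 180.1 on Nfkb1KO-Air replicate 1, the array with the highest Cyp1a1 level. The log2 ratio of the 3' to the 5' Gapdh probe set was -0.55 to -0.37 in the 6 O3 mice and -0.36 to -0.10 in the 6 air mice, and log2 signals of the poly-A spikes added to the RNA were 7.97 to 8.69 in the O3 mice and 8.68 to 9.08 in the air mice. Their part in the O3 differences of Cyp1a1 and Ahr was not tested. Without Nfkb1KO-Air replicate 1 and WT-Air replicate 3, which had a log2 level of 12.31 for Myh4, a skeletal muscle myosin, the O3 difference of Cyp1a1 was -1.54 in Nfkb1-/- mice (adjusted p = 0.0147) and -2.74 in WT mice (adjusted p = 0.00122). Ahr in WT mice then gave -0.44 (adjusted p = 0.0819).

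Markers of endothelium and of other lung cells were counted as well, and read against the 2.83% of all genes lower and 3.35% higher with O3 in Nfkb1-/- mice and the 2.24% lower and 3.16% higher in WT mice. Of 16 endothelial markers, 4 were lower with O3 in Nfkb1-/- mice and 2 in WT mice, none was higher, and the median differences were -0.13 in Nfkb1-/- mice and -0.09 in WT mice. Aplnr fell most, by 1.72 ± 0.27 in Nfkb1-/- mice and 1.28 ± 0.27 in WT mice, and Kdr fell by 0.72 ± 0.14 in Nfkb1-/- mice and 0.58 ± 0.14 in WT mice. Tie1 and Cdh5 also fell in Nfkb1-/- mice, by 0.84 ± 0.17 and 0.55 ± 0.15. Marker sums were taken over deposited signals, before normalisation. The summed signal of the 16 markers was 65192 to 82341 in Nfkb1KO-O3, 71577 to 85118 in Nfkb1KO-Air, 78724 to 83483 in WT-O3 and 76842 to 107117 in WT-Air lungs, so that the endothelial sum overlapped between groups.

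Sums of other cell types did separate with O3. Ciliated cell markers summed to 22409 to 28827 in Nfkb1KO-O3, 31489 to 41180 in Nfkb1KO-Air, 21746 to 27877 in WT-O3 and 28196 to 32209 in WT-Air lungs, lower with O3 in both genotypes without overlap. Of these 10 markers, 6 were called lower in Nfkb1-/- mice (first Tppp3, Rsph1, Ccdc39 and Foxj1) and 2 in WT mice (Tppp3 and Ccdc39), with negative values for 10 of 10 in Nfkb1-/- mice and 9 of 10 in WT mice. Smooth muscle markers summed to 18970 to 20423 in Nfkb1KO-O3, 27008 to 38610 in Nfkb1KO-Air, 20862 to 26404 in WT-O3 and 22329 to 34627 in WT-Air lungs, apart with O3 in Nfkb1-/- mice and between the genotypes after O3. Of these 8 markers, 6 were called lower in Nfkb1-/- mice (first Mylk, Myh11, Acta2 and Actg2) and 0 in WT mice, with negative values for 8 of 8 in Nfkb1-/- mice and 7 of 8 in WT mice. The interaction called 0 markers of either list. Fibroblast markers summed to 72432 to 78067 in Nfkb1KO-O3, 71195 to 90814 in Nfkb1KO-Air, 79227 to 82538 in WT-O3 and 90684 to 98701 in WT-Air lungs, apart with O3 in WT mice and between the genotypes after O3. Dpt and Col1a2 were called lower in Nfkb1-/- mice and Dpt in WT mice. Skeletal muscle markers summed to 503 to 1038 in WT-O3 and 1278 to 36806 in WT-Air lungs, and overlapped with O3 in Nfkb1-/- mice. Their median O3 difference was -2.76 in WT mice (10 of 10 negative) and 1.24 in Nfkb1-/- mice (8 of 10 positive). Heart muscle sums overlapped with O3, with medians of -0.76 in Nfkb1-/- and -1.08 in WT mice (10 of 10 negative in each). No skeletal or heart muscle marker was called with O3.

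Alveolar and club cell markers had fewer calls with O3 than macrophage markers. Alveolar type 1 markers summed to 91125 to 97789 in Nfkb1KO-O3, 67715 to 82865 in Nfkb1KO-Air, 93517 to 100064 in WT-O3 and 89811 to 102318 in WT-Air lungs, and Hopx was called higher with O3 in both genotypes. Alveolar type 2 markers summed to 131074 to 137203 in Nfkb1KO-O3, 109396 to 128665 in Nfkb1KO-Air, 127612 to 134808 in WT-O3 and 132322 to 141125 in WT-Air lungs, and none of the 9 was called in any comparison. The type 1 sums of Nfkb1KO-Air lungs lay below those of every other group, and the type 2 sums below those of Nfkb1KO-O3 and WT-Air lungs. These are deposited signals, and replicate 1 of Nfkb1KO-Air had a median signal of 180.1. On the normalised scale the type 1 median for genotype in air was -0.115, with 0 called. Of 12 club cell markers, Chad was called lower with O3 in Nfkb1-/- mice and 0 were called in WT mice, and their sums overlapped between groups. Of 12 macrophage markers, 3 were higher (Marco, Chil3 and Cd68) and Ccr2 was lower with O3 in Nfkb1-/- mice, and 2 were higher in WT mice (Chil3 and Marco). Marco was also called 3.38-fold lower in Nfkb1KO-Air than in WT-Air lungs, beside 0.0854% of all genes called lower. The defining markers of lung were bright, with mean log2 levels of 12.42 for Cdh5, 14.77 for Scgb1a1 and 14.39 for Sftpc.

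Neutrophil markers had mostly positive differences between Nfkb1-/- and WT mice, both after O3 and in air. After O3 all 9 had positive differences between Nfkb1-/- and WT mice, with a median of 1.13, and 2 were called higher, beside 0.552% of all genes. These were S100a8 (2.46-fold, adjusted p = 0.00153) and S100a9 (2.65-fold, adjusted p = 0.0108, limma), which encode the subunits of calprotectin. In air 8 of the 9 were positive, with a median of 0.94, and S100a8 was called as well (2-fold higher in Nfkb1KO-Air lungs, beside 0.256% of all genes). Most differences after O3 were also positive for skeletal muscle (10 of 10), heart muscle (9 of 10), macrophage (11 of 12), club cell (10 of 12) and ciliated cell markers (7 of 10). Most were negative for smooth muscle (8 of 8), endothelial (13 of 16), fibroblast (10 of 13), alveolar type 1 (8 of 9) and alveolar type 2 markers (6 of 9). The summed neutrophil signal was 3398 to 10208 in Nfkb1KO-O3, 7088 to 10453 in Nfkb1KO-Air, 1941 to 4099 in WT-O3 and 2186 to 9766 in WT-Air lungs, with overlap in each comparison. Of the endothelial markers, 0 were called for genotype after O3 and their median was -0.20. The part of cell numbers in the Cyp1a1 and Ahr differences was not tested.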

How the data were processed

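Total left lung RNA of 12 mice was amplified and hybridised to 1-colour Affymetrix Mouse Genome 430 2.0 arrays. The deposited table holds linear signal intensities, 1 per probe set and array, that the authors had computed with MAS5 in Affymetrix Expression Console (versions not given) and scaled to a trimmed mean of 500 per array. No detection calls were used. The number of arrays limits the precision, and the sources do not say more of the mice of a group than that each is 1 animal.

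Of 45101 probe sets, 64 control probe sets were set aside, which the written design had not mentioned. After a floor of 1, signals were put on the log2 scale and quantile normalised. Probe sets that exceeded the 20th percentile of at least 1 array were kept (42559), after the filter in the methods of the study. The platform annotation gave 1 symbol for 34958 probe sets, several for 932 and none for 9211. The probe set with the highest mean stood for a gene, which left 17569 genes. Of the probe sets with 1 symbol, 34754 matched the RefSeq table of GRCm38.p6.

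Group means over all 12 arrays were estimated in 1 linear model with limma 3.58.1 in R 4.3.3, with a mean-dependent trend in the spread and 12.6 degrees of freedom in all, residual and prior, and p-values were Benjamini-Hochberg adjusted over all genes. The threshold for a call was an adjusted p of 0.05. Errors of differences are standard errors of this model, intervals are 95% intervals, and n is 3 mice per group. An exact two-sided test of 3 against 3 mice cannot go below p = 0.1. Probe sets of the members were also fitted one by one among all that passed. The procedure was tested on simulated data. All 9 members are named. From each gene list, up to 4 called genes per comparison with the smallest p were named. Cyp4v3, Ephx1, further list genes with values and no call, as well as the array and tissue measures, were chosen after their values were seen. The members and lists were chosen with earlier results of these data known. Alternatives changed the normalisation, floor, filter, choice of probe set, trend, array weights, arrays in the fit, replicate block, arrays left out and the test.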

Additional observations from a re-analysis of the deposited data

How the results depend on the processing

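Of 40 differences of 8 members (Ahrr gave none), 912 recomputed values included 857 with the same sign and side of the threshold, 19 that lost a call, 10 that gained one and 26 that changed sign, all 26 without a call in either setting. The members called for genotype after O3 numbered 1 with arrays centred on their medians, beside 0.444% of all genes. They also numbered 1 with the mean of the probe sets of a gene (0.592% of all genes). They numbered 1 again with only the arrays of the groups compared (0.956%). They numbered 0 with no trend in the spread (0.376%) and 1 to 2 when single mice were left out (0.29% to 0.848%). For O3 in WT mice they numbered 1 with median centring (0.495% of all genes), the mean of probe sets (2.98%) or no trend (2.48%). They also numbered 1 without both arrays that stand apart (4.21%). For O3 in Nfkb1-/- mice they numbered 1 with median centring (1.75%). With array weights they numbered 3 for genotype after O3 (with Arnt), beside 2.25% of all genes. The weights also gave 3 for O3 in WT mice (with Fmo2, 8.81%) and in Nfkb1-/- mice (with Tiparp, 9.94%). For O3 in Nfkb1-/- mice Tiparp also made them 3 with signals as deposited (6.6%) and a floor of 16 (6.09%). The same held with the filter at the median (10.8%) and the mean of probe sets (3.32%). The methods' test has a genotype term that pools air and O3 mice. This term gave 3 members before Benjamini-Hochberg adjustment (Cyp1a1, Ahr and Arnt) and 1 after it (Cyp1a1). The exposure term of this test, which pools the genotypes, gave 6 for O3 before adjustment, beside 4801 of all genes. After adjustment it gave 4 (Cyp1a1, Ahr, Cyp4b1 and Fmo2), beside 2140 of all genes. Before adjustment the methods' test gave 2 for genotype in air, beside 1182 of all genes, and 1 for the interaction, beside 1053. Leaving out single mice gave 1 to 2 for O3 in WT mice, beside 1.66% to 7.34% of all genes. In Nfkb1-/- mice it gave 2 to 3, beside 2.08% to 6.37%.

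Median centring shifted the median of all genes by -0.19 for genotype in air, 0.26 for O3 in Nfkb1-/- mice and 0.23 for the interaction. It changed the sign of Cyp4b1 (-0.263) and Fmo2 (-0.024) for genotype in air, of Arnt for O3 in Nfkb1-/- mice (0.186), and of the interaction of Ahr (0.005), Cyp4b1 (0.395) and Fmo2 (0.312). With signals as deposited, Cyp4b1 gave -0.027 for genotype in air, and the interaction gave 0.095 for Cyp4b1 and 0.012 for Fmo2. With the mean of probe sets, Arnt gave -0.004 for genotype after O3 and -0.246 for the interaction, and Tiparp 0.189 for genotype in air. Array weights gave -0.042 for the interaction of Arnt. When single mice were left out, sign changes lay within these ranges. For genotype after O3 they were -0.247 to 0.049 for Cyp1b1, -0.038 to 0.075 for Cyp4b1 and -0.229 to 0.11 for Aox3. They were -0.075 to 0.026 for Tiparp in air and -0.095 to 0.125 for Aox3 with O3 in Nfkb1-/- mice. The interaction ranged from -0.126 to 0.269 for Arnt, -0.106 to 0.008 for Cyp4b1 and -0.25 to 0.071 for Fmo2. The cause was not tested.

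Mice were not treated as paired by replicate number. Deviations of mice with the same number correlated at -0.084 to 0.107. They were not set against those of other mice, and cannot show whether mice were paired. A replicate block kept 2 members called for genotype after O3, 2 for O3 in either genotype and 0 elsewhere. Over all genes it gave 100 for genotype after O3, against 127 without the block. For O3 it gave 4.89% of all genes in Nfkb1-/- mice and 4.13% in WT mice. Counts over all genes ranged from 51 to 395 for genotype after O3, 9 to 93 for genotype in air, 308 to 1747 for O3 in Nfkb1-/- mice, 87 to 1548 for O3 in WT mice and 0 to 15 for the interaction. Signals at the limit restrict Ahrr, Cyp1a2 and the dimmest Cyp1b1 probe set.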
